A study of Rattus norvegicus with 6 samples.

Results

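The genes described here are the 7 plasma membrane amino acid transporter genes Slc3a2, Slc7a5, Slc7a1, Slc38a2, Slc1a4, Slc1a5 and Slc6a9, which are commonly listed as genes of the cell's stress response. They were taken by symbol from the gene table, where they make up 7 of 24360 gene rows, and 22 of 44501 transcript rows belong to them. RNA was sequenced from wild-type H9c2, a line made from embryonic rat heart that the labels class as an embryonic cardiomyocyte line, in 3 control samples (Ctrl, given as NC in the labels) and 3 samples with ginsenoside Rb2 (Rb2), a saponin from ginseng. The protocol is worded alike for all 6 samples: 48 h with Rb2, then 4 to 6 h without oxygen and glucose, then 12 h with both restored. Whether the Ctrl samples went through the deprivation is not stated, and no Rb2 dose is given. The replicates are not described as separate cultures, so the p-values below measure the spread between samples of 1 cell line, which may be technical.

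These proteins carry amino acids across the cell membrane. When amino acids run short or unfolded protein builds up, phosphorylation of the initiation factor eIF2 alpha slows general protein synthesis while translation of the transcription factor ATF4 rises. In mammalian cells ATF4 is known to act with C/EBP family partners at composite sites in the control regions of amino acid transporter and synthesis genes. This program is called the integrated stress response.

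Promoter windows of the 2 genes that passed the test below, Slc7a1 and Slc38a2, and of 2 others with a match to a searched motif, Slc1a4 and Slc3a2, are printed to show what the transporter promoters hold. Each runs 5′ to 3′ on the gene's own strand from 250 bases before to 50 after the start annotated by RefSeq on build GRCr8. Capitals mark matches, on either strand, to TGATGNAA (the core of a composite C/EBP and ATF site), CACGTG (an E-box) or TGACGT (a half-site for ATF and CREB factors). The motifs were chosen with the sequences in view.
Slc7a1: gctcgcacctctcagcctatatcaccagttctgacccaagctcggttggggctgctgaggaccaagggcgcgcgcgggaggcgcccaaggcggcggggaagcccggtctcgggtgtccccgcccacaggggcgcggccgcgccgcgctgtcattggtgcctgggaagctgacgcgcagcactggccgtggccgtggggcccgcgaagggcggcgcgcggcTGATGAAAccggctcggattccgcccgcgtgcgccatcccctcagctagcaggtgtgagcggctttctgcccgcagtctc
Slc38a2: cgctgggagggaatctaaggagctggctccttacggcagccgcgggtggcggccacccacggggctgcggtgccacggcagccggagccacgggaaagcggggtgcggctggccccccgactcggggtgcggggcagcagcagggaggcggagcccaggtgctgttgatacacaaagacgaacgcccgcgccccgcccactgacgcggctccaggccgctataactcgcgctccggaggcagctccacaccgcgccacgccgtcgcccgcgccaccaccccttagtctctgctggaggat
Slc1a4: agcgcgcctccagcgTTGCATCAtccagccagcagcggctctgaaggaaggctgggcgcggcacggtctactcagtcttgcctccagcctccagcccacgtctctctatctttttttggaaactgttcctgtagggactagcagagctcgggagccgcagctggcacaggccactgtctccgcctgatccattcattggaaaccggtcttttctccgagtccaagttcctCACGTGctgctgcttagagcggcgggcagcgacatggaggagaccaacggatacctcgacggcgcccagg
Slc3a2: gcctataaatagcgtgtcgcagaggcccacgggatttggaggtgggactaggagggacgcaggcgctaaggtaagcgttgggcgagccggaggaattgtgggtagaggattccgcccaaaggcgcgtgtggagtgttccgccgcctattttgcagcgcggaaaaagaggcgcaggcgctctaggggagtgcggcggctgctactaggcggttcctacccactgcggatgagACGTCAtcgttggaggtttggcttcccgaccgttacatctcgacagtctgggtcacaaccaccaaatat

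These windows lie at chr12:11664238-11664537 (plus strand) for Slc7a1, chr7:129742570-129742869 (minus strand) for Slc38a2, chr14:98761513-98761812 (minus strand) for Slc1a4 and chr1:215048015-215048314 (minus strand) for Slc3a2. The composite letters stood at bases -30 to -23 of Slc7a1, as TGATGAAA, and on the opposite strand at -235 to -228 of Slc1a4, which reads TTGCATCA on the gene's strand. Slc1a4 also held CACGTG at -20 to -15, and Slc3a2 held ACGTCA, the reverse complement of TGACGT, at -19 to -14. The RefSeq span of the Slc1a4 gene begins further upstream, at chr14:98761672, than the start from which its positions are counted here. Slc7a5 had CACGTG at -179 to -174. None of the 3 motifs stood in the windows of Slc38a2 or Slc6a9 or in the other annotated window of Slc3a2. The table held 7 windows for 6 of the 7 genes; Slc1a5 is named only. Of 33469 promoter windows of this length, 3.98% held TGATGNAA, 6.42% CACGTG and 7.94% TGACGT. A match is a run of letters, not a measured binding site. Only these windows were searched, so a window without a match does not show that the gene lacks such a site elsewhere, for example in an intron.

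Total counts were 5193077 to 8793390 per sample, highest in Ctrl replicate 1. On the first principal component of log2 CPM (44.7% of the variance) Ctrl replicate 1 stood at -42.7 and the other Ctrl samples at -14.7 and 1.12, while the Rb2 samples lay between 15.7 and 21.0. The mean length of the transcript behind a count was 1172 to 1228 bases in Ctrl and 1244 to 1255 bases in Rb2. The heart muscle genes Actc1, Myh7, Actn2, Tnni3 and Myl2 had 0 to 2 counts in any sample, and Myh6 had 6 to 10. Summed over the 7 heart muscle markers with a row, the level was 49.1 to 62.9 CPM in Ctrl and 44.2 to 51.0 in Rb2, nearly all of it Tnnt2. The 7 skeletal muscle markers, among them Myod1 at 12.4 ± 0.49 CPM in Ctrl, summed to 35.1 to 45.5 and 41.6 to 47.1 CPM. Des, Myog and Acta1 had Ctrl means of 12.2, 9.72 and 4.28 CPM. Ckm had 0 to 4 counts in any sample, Myh3 1 to 6 and Tnnt3 2 to 11. Fibroblast markers summed to 2905 to 3825 CPM in Ctrl and 3452 to 3865 in Rb2, nearly all of it Col1a1, Col1a2 and Col3a1. Of the others, Thy1 was at 131 ± 20.4 CPM in Ctrl and 129 ± 2.71 in Rb2 (SD, n = 3 each). Dcn was at 0, and Lum and Pdgfra had 0 to 1 counts in any sample. The endothelial markers with a row, Tek and Vwf, stayed under 0.18 CPM. Leukocyte markers, with Ptprc at 0 and Cd68 at 0 to 3 counts in any sample, ran from 19.9 to 30.4 CPM over both groups, nearly all of it Cd14. Epithelial markers, with Epcam, Cdh1 and Krt18 at 0, ran from 32.2 to 41.9 CPM, all of it Krt8. The part of these differences in the results below was not tested. In a bulk sample, fewer cells expressing a gene and less of its RNA per cell cannot be told apart.

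All 7 transporters passed the filter on low counts. Of them, 1 rose (Slc38a2), 1 fell (Slc7a1) and 5 did not pass. Slc38a2 was 1.40-fold of its Ctrl level in Rb2 and Slc7a1 was 0.623-fold. Over all 11551 genes tested with edgeR, 2.70% were called at an adjusted p under 0.05, 0.805% lower and 1.90% higher in Rb2; scaled by library size only, the calls over all genes went from 93 lower and 219 higher to 80 lower and 463 higher, and with upper-quartile factors to 92 lower and 135 higher. The median log2 fold change of the 7 was -0.27, with 6 below 0, against -0.016 over all genes tested, of which 6004 of 11551 lay below 0. Without Ctrl replicate 1, Slc7a5, Slc1a4 and Slc1a5 turned above 0. Levels are CPM (counts scaled to a common library total) after TMM scaling, log2 fold changes are Rb2 over Ctrl, and adjusted p-values come from edgeR's quasi-likelihood test with Benjamini-Hochberg adjustment over all genes tested. Of the 7967 genes to which DESeq2 gave an adjusted p, it called 1.19% lower and 4.05% higher. It also called Slc7a1 lower and Slc38a2 higher, and no other member. To Slc6a9 it gave no adjusted p.

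**Figure D1:**
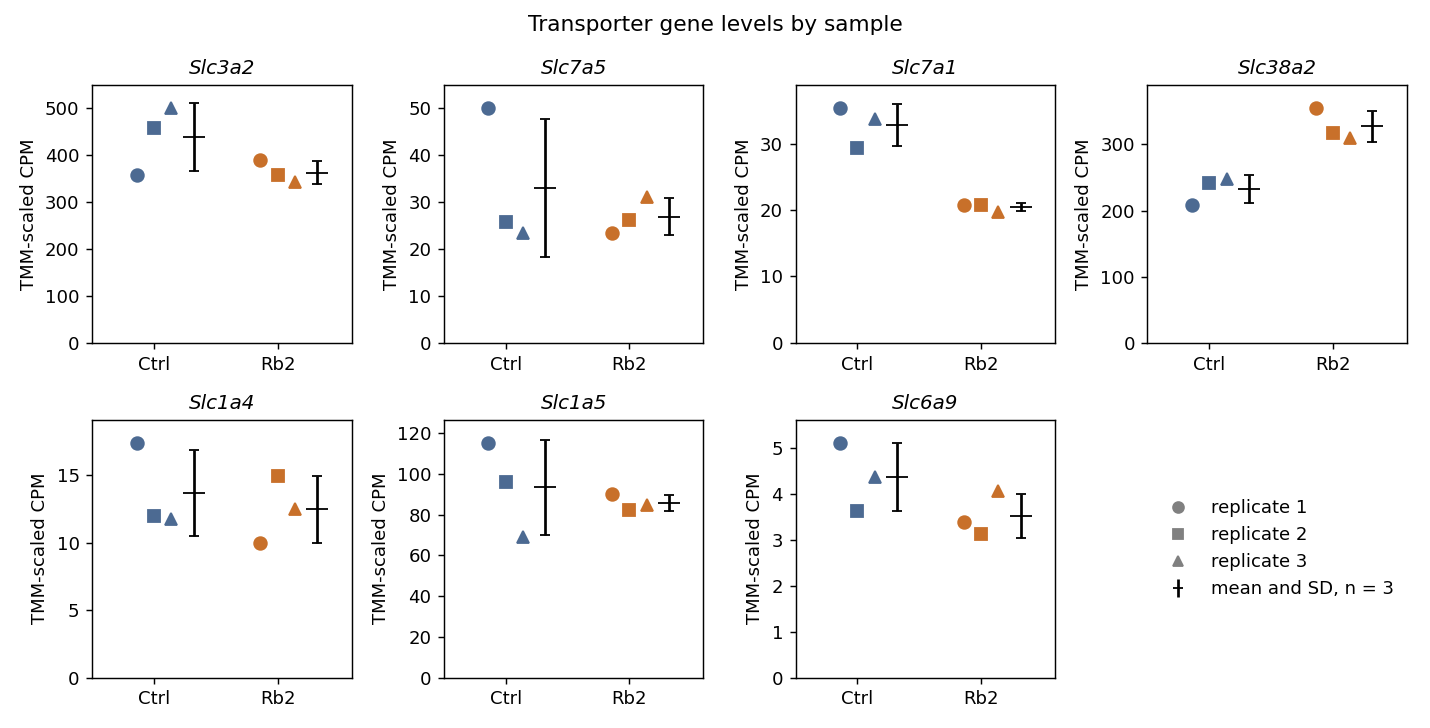
TMM-scaled CPM of each transporter gene (vertical axes from 0, a different range in each panel) in the 3 Ctrl and 3 Rb2 samples; points are samples, symbols mark replicate numbers, and the bar beside each group gives its mean and SD. The groups do not overlap for Slc7a1 and Slc38a2, and Ctrl replicate 1 is the highest Ctrl sample for Slc7a5, Slc7a1, Slc1a4, Slc1a5 and Slc6a9.

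Slc3a2 encodes the heavy chain 4F2hc, also called CD98, a glycoprotein that brings several light-chain carriers to the cell surface. It had the highest level of the 7, at 358, 457 and 499 CPM in Ctrl replicates 1 to 3 and 389, 357 and 342 CPM in Rb2 replicates 1 to 3. The Rb2 samples lay below Ctrl replicates 2 and 3, but Ctrl replicate 1 stood among them. The means were 438 ± 72.7 and 363 ± 24.3 CPM (SD, n = 3 each), with a log2 fold change of -0.27 (SE 0.12), which did not pass (edgeR adjusted p = 0.258). Without Ctrl replicate 1 it did: the log2 fold change was then -0.38 (edgeR adjusted p = 0.00522).

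Slc7a5 encodes LAT1, the light chain that exchanges large neutral amino acids such as leucine and is joined to 4F2hc by a disulfide bond. It measured 49.9, 25.7 and 23.4 CPM in Ctrl replicates 1 to 3. In Rb2 it measured 23.3, 26.2 and 31.1 CPM. Ctrl replicate 1 stood apart, above all other samples, and the other 5 samples were intermixed. The group means of 33.0 ± 14.7 and 26.9 ± 3.93 CPM (SD, n = 3 each) gave a log2 fold change of -0.31 (SE 0.28; edgeR adjusted p = 0.586). Without Ctrl replicate 1 the sign turned, to 0.15 (SE 0.15; edgeR adjusted p = 0.612).

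Slc7a1 encodes CAT1, the main carrier of arginine, lysine and ornithine in many cell types, and it fell in Rb2. It measured 35.3, 29.3 and 33.7 CPM in Ctrl replicates 1 to 3 and 20.8, 20.8 and 19.7 CPM in Rb2 replicates 1 to 3. Every Rb2 sample lay below every Ctrl sample, a separation in that direction that 12.2% of all genes tested had. The mean went from 32.8 ± 3.13 to 20.4 ± 0.65 CPM (SD, n = 3 each), a log2 fold change of -0.68 (SE 0.14; edgeR adjusted p = 0.043). The adjusted p lay close to the threshold. The log2 fold change ran from -0.85 to -0.54 over 19 alternatives, and the call was kept in 8 of them and lost in 11, with adjusted p-values from 0.0144 to 0.203; leaving out Ctrl replicate 2 (0.146), Ctrl replicate 3 (0.0512) or Rb2 replicates 1, 2 or 3 (0.134, 0.203 and 0.188) ended it.

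Slc38a2 encodes SNAT2, a sodium-coupled carrier of alanine, glutamine and other small neutral amino acids, whose RNA is known to rise when mammalian cells are deprived of amino acids or put in hypertonic medium. It rose in Rb2. Ctrl replicates 1 to 3 measured 209, 242 and 248 CPM, and Rb2 replicates 1 to 3 measured 354, 317 and 309.8 CPM. All Rb2 samples lay above all Ctrl samples, as was the case for 15.0% of all genes tested. The mean went from 233 ± 20.9 to 327 ± 23.9 CPM (SD, n = 3 each), a log2 fold change of 0.49 (SE 0.10; edgeR adjusted p = 0.042). Over the same 19 alternatives the log2 fold change ran from 0.34 to 0.60, and the call was kept in 9 and lost in 10, with adjusted p-values from 0.00303 to 0.198. It was lost with a gene length offset per library (0.34, adjusted p = 0.159), under which Slc7a1 kept its call (-0.85, adjusted p = 0.0246), and without Ctrl replicate 2 (0.146) or Rb2 replicates 1, 2 or 3 (0.149, 0.198 and 0.16).

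Slc1a4 and Slc1a5 encode the related sodium-dependent exchangers ASCT1 and ASCT2; ASCT1 carries alanine, serine, cysteine and threonine, and ASCT2 also takes glutamine. Slc1a4 measured 17.4, 11.9 and 11.7 CPM in Ctrl replicates 1 to 3 and 9.97, 14.9 and 12.5 CPM in Rb2 replicates 1 to 3. The groups overlapped, with the lowest value in Rb2 replicate 1 and the highest in Ctrl replicate 1. Its log2 fold change was -0.14 (SE 0.23; edgeR adjusted p = 0.77), and 0.10 without Ctrl replicate 1. Slc1a5 measured 115, 95.8 and 69.0 CPM in Ctrl and 90.2, 82.3 and 84.8 CPM in Rb2. Its Rb2 samples all fell within the Ctrl range. The log2 fold change was -0.12 (SE 0.17; edgeR adjusted p = 0.729), and it turned to 0.08 without Ctrl replicate 1 and to 0.02 in limma on the deposited CPM, as log2(CPM + 1).

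Slc6a9 encodes GlyT1, a sodium- and chloride-coupled glycine carrier, and had the fewest counts of the 7. It received 42, 20 and 25 counts in Ctrl replicates 1 to 3 and 19, 18 and 22 counts in Rb2 replicates 1 to 3. In CPM these were 5.10, 3.61 and 4.37 in Ctrl and 3.38, 3.12 and 4.05 in Rb2, with Rb2 replicate 3 above Ctrl replicate 2, so the groups overlapped. The log2 fold change was -0.32 (SE 0.25; edgeR adjusted p = 0.511). A gene at 0 could have up to 3 counts, which is 0.341 CPM in the deepest sample and 0.578 CPM in the shallowest; this limit covers counting error only.

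**Figure D2:**
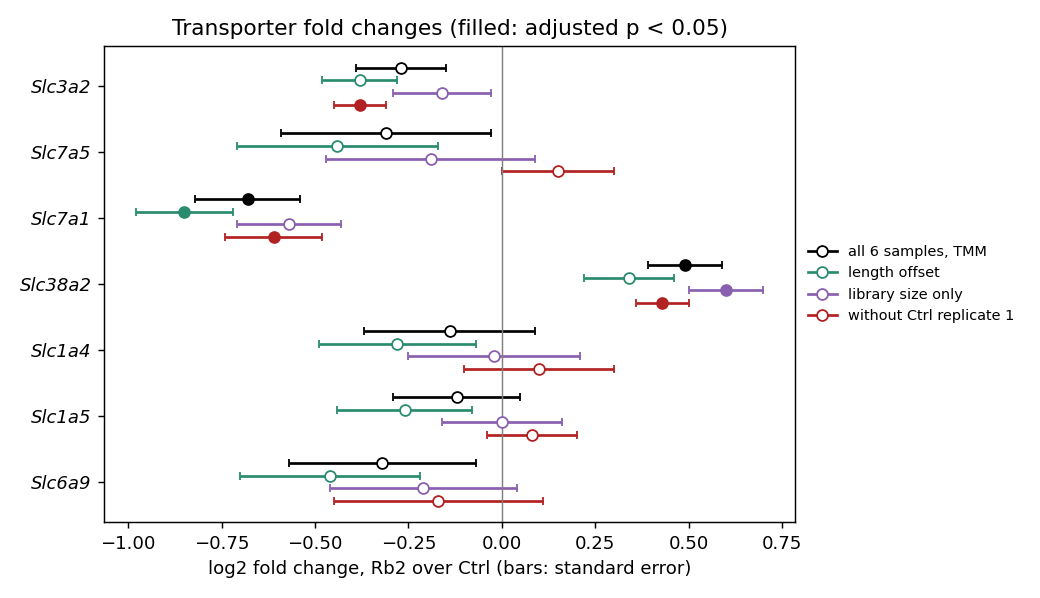
Log2 fold change of each transporter gene, Rb2 over Ctrl (horizontal axis; bars are standard errors), with all 6 samples and TMM factors, with a gene length offset per library, with library size only and without Ctrl replicate 1; filled points have an adjusted p under 0.05. Slc7a1 stays below 0 and Slc38a2 above 0 in all 4 fits, and Slc7a5, Slc1a4 and Slc1a5 cross 0 without Ctrl replicate 1.

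To compare levels between genes, CPM were divided by the deposited gene length in kb. This division assumes that counts grow with gene length, as with short reads. Whether reads were long or short is not given, so the levels and order per kb depend on that assumption. In Ctrl the order per kb was Slc3a2 at 182 ± 30.2 CPM per kb, Slc38a2 at 50.3 ± 4.50, Slc1a5 at 28.7 ± 7.11, Slc7a5 at 8.68 ± 3.86, Slc7a1 at 4.92 ± 0.47, Slc1a4 at 3.52 ± 0.82 and Slc6a9 at 1.32 ± 0.22 (SD, n = 3). In Rb2 it was Slc3a2 at 151 ± 10.1 CPM per kb, Slc38a2 at 70.5 ± 5.17, Slc1a5 at 26.4 ± 1.24, Slc7a5 at 7.07 ± 1.04, Slc1a4 at 3.21 ± 0.64, Slc7a1 at 3.07 ± 0.10 and Slc6a9 at 1.07 ± 0.15. Without the division, Slc7a1 stood above Slc1a4 in both groups, with means of 32.8 and 13.7 CPM in Ctrl and 20.4 and 12.5 CPM in Rb2. Per kb, Slc7a1 and Slc1a4 stood in opposite order in the groups. They were the only neighbours in either order whose samples overlapped: Slc7a1 ran from 4.40 to 5.30 CPM per kb in Ctrl and Slc1a4 from 3.02 to 4.47, and in Rb2 Slc1a4 ran from 2.57 to 3.84 and Slc7a1 from 2.96 to 3.13.

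Ratios between members within a sample do not depend on how the libraries are scaled. The 4 given here are of CPM per kb, so their size depends on the division by length. They were chosen after their values were seen and are descriptions. The heavy chain Slc3a2 stood above its partner Slc7a5 per kb in every sample, by 11.3-, 28.1- and 33.7-fold in Ctrl replicates 1 to 3 and by 26.4-, 21.5- and 17.4-fold in the Rb2 replicates, so the groups overlapped. Slc38a2 stood above Slc7a1 by 8.50-, 11.9- and 10.5-fold in Ctrl and 24.4-, 21.9- and 22.6-fold in Rb2. Here the groups lay apart, with means of 10.3 ± 1.70 and 23.0 ± 1.32 (SD, n = 3 each). Slc3a2 stood above Slc38a2 by 3.29- to 3.88-fold in Ctrl and 2.12- to 2.17-fold in Rb2, again with no overlap. Slc1a5 stood above Slc1a4 by 7.03- to 9.58-fold in Ctrl and 6.59- to 10.8-fold in Rb2, and these ranges overlapped. Of the summed level per kb of the 7 genes, Slc38a2 made up 17.8, 18.2 and 17.9% in Ctrl and 27.4, 26.6 and 26.7% in Rb2.

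**Figure D3:**
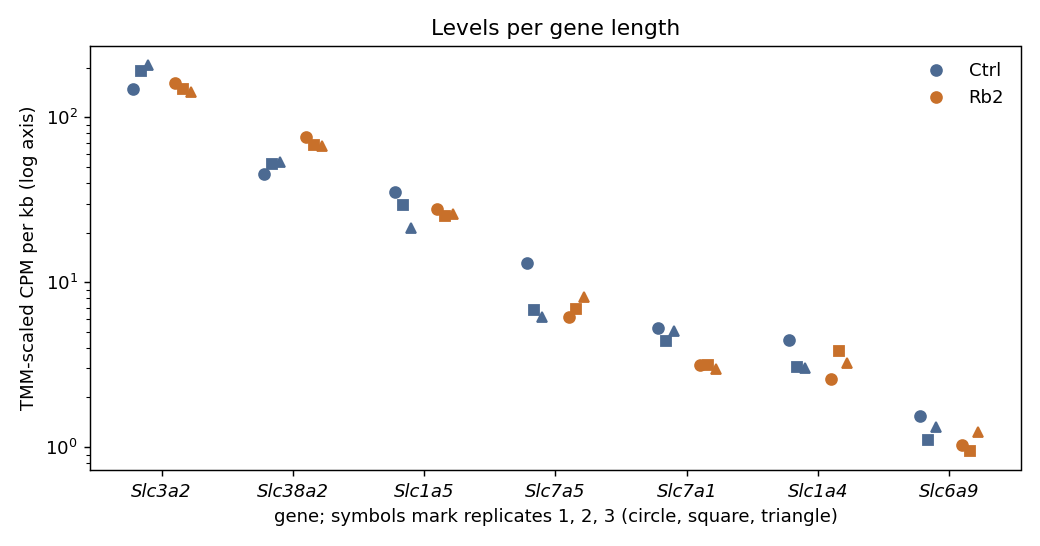
TMM-scaled CPM per kb of deposited gene length (vertical log axis) for the 7 transporter genes, ordered by their Ctrl mean; points are samples, colours are groups and symbols replicate numbers. Slc3a2 is highest and Slc6a9 lowest in both groups, Slc38a2 moves up and Slc7a1 moves down in Rb2, and Ctrl replicate 1 stands above the other samples for Slc7a5.

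The 22 transcript rows of the 7 genes are 8 annotated transcripts and 14 new models whose names begin with ONT, and for every member they added up exactly to the gene's own counts in each of the 6 samples. In edgeR, 0 of the 12 transcripts past the filter were called, beside 0% of 16679 transcripts in all; 2 of the 12 had an unadjusted p under 0.05 (Slc7a1-201 and Slc38a2-201), as had 13.8% of all transcripts, and DESeq2 called 1 of the 12, beside 4.21% of the 8257 transcripts to which it gave an adjusted p. The call of DESeq2 was Slc38a2-201 (log2 fold change 0.49, adjusted p = 0.00165), which held 99.6 to 100% of its gene's counts and had an edgeR adjusted p of 0.159. Slc3a2-201 held 94.3 to 98.6% of its gene and Slc1a5-201 90.8 to 96.7%; their log2 fold changes were -0.27 (edgeR adjusted p = 0.451) and -0.11 (edgeR adjusted p = 0.807). Transcript usage, meaning how a gene's counts divide among its transcripts, could be tested with diffSpliceDGE in 4 of the 7 genes (Slc3a2, Slc7a5, Slc7a1 and Slc1a5), and 0 were called, beside 0.357% of 3361 genes. None of the 4 had an unadjusted Simes p under 0.05, as 2.08% of these genes had; by edgeR's F test 1 had, Slc7a5 (edgeR adjusted p = 0.404), as had 10.4% of these genes. On simulated data, edgeR recovered 8% of 2-fold transcript changes and 0% of 2-fold usage changes. The lack of edgeR calls here therefore does not show that transcripts or usage were unchanged.

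Slc6a9 was divided between the annotated transcript Slc6a9-201 (3182 bases) and the new model ONT.13687.1 (3172 bases). ONT.13687.1 received 14, 12 and 7 counts in Ctrl replicates 1 to 3 and 0 in each Rb2 sample. Slc6a9-201 received 28, 8 and 18 counts in Ctrl and 19, 18 and 22 in Rb2. The new model was thus counted in every Ctrl sample and in no Rb2 sample, with shares of 33.3, 60.0 and 28.0% of the gene's counts in Ctrl. In Rb2 it had 0 of 59 counts, which allows a share of up to 5.08%. Over column totals without TMM factors, the group level of 1.61 CPM in Ctrl was set against a limit of 3 counts over the Rb2 group, 0.184 CPM. The counts given to ONT.13687.1 were thus at least 8.75-fold lower in Rb2, a bound that covers counting error only. How the authors divided counts between 2 models of such similar length is not given, so the division is uncertain. ONT.13687.1 did not reach the transcript filter and was singled out after its values were seen. An exact two-sided permutation test of its share gave p = 0.1, the smallest that 3 against 3 samples allow (0.6 adjusted over 18 transcripts). Of all 44501 transcripts, 0.398% (177) were counted in every Ctrl sample and in no Rb2 sample, and ONT.13687.1 had rank 21 among these by Ctrl counts. Slc6a9-201 alone had a log2 fold change of 0.38 (SE 0.37; edgeR adjusted p = 0.69), opposite in sign to the gene.

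Slc7a1 had the annotated transcript Slc7a1-201 (6471 bases), the annotated row, Slc7a1-203, with 1 count in all, and the new models ONT.4699.1 (5743 bases) and ONT.4699.2 (5706 bases). The new models were never counted in the same sample. ONT.4699.1 had 33, 59 and 0 counts in Ctrl replicates 1 to 3 and 0, 49 and 33 counts in Rb2 replicates 1 to 3. ONT.4699.2 had 0, 0 and 83 counts in Ctrl and 36, 0 and 0 in Rb2. Each sample thus used 1 of the models, and each model was used in both groups. Together they took 30.3 ± 16.7% of the gene's counts in the Ctrl samples and 34.1 ± 5.79% in the Rb2 samples (SD, n = 3 each; exact two-sided permutation p = 0.9). Slc7a1-201 went from 23.2 ± 7.40 to 13.5 ± 1.05 CPM (SD, n = 3 each), with a log2 fold change of -0.79 (SE 0.24), which did not pass (edgeR adjusted p = 0.252). How the authors divided counts between such similar models is not given in the sources used here, so the division is uncertain, and the summed gene value is the firmer measure.

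In Slc1a4, the excess of Ctrl replicate 1 lay in the new model ONT.6542.1 (1451 bases). That model had 66, 0 and 0 counts in Ctrl replicates 1 to 3 and 0, 8 and 0 counts in Rb2 replicates 1 to 3. Slc1a4-201 (3870 bases) had 77, 66 and 67 counts in Ctrl and 56, 78 and 68 in Rb2, with a log2 fold change of 0.12 (edgeR adjusted p = 0.819). A pair of short new models of other members, chosen after their values were seen, also had their highest counts in Ctrl replicate 1. ONT.2077.2 (904 bases) of Slc3a2 had 125, 27 and 23 counts in Ctrl and 21, 23 and 15 in Rb2, and ONT.179.1 (1417 bases) of Slc1a5 had 66, 9 and 7 in Ctrl and 15, 12 and 9 in Rb2. Their log2 fold changes were -1.22 (edgeR adjusted p = 0.394) and -0.81, and the latter turned to 0.58 without Ctrl replicate 1. In Slc7a5 the excess of Ctrl replicate 1 lay in the annotated transcript instead: Slc7a5-201 had 389, 138 and 123 counts in Ctrl and 122, 133 and 123 in Rb2 (log2 fold change -0.49, edgeR adjusted p = 0.518). The new model ONT.9194.5 (3180 bases) of Slc7a5 made up 2.68, 1.41 and 8.21% of the gene in Ctrl and 6.11, 9.27 and 20.7% in Rb2, with overlap between Ctrl replicate 3 and Rb2 replicate 1 (log2 fold change 1.47, edgeR adjusted p = 0.423).

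**Figure D4:**
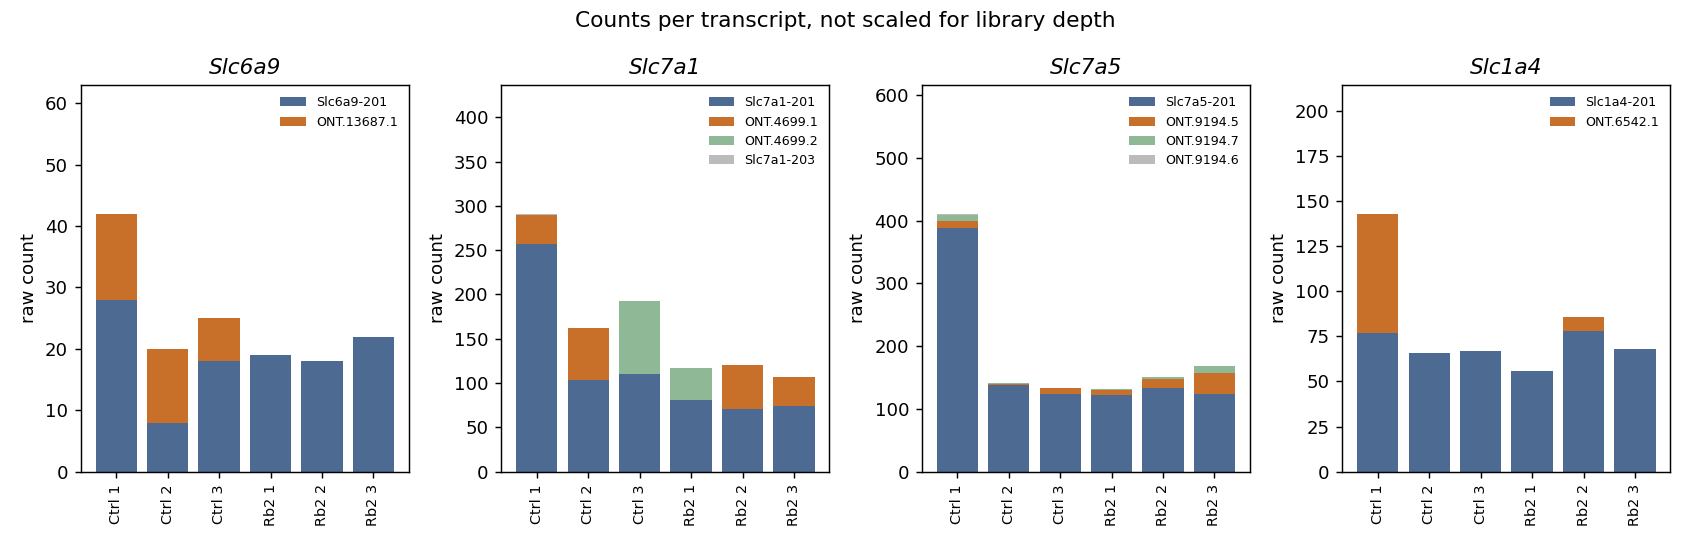
Raw counts of each transcript of Slc6a9, Slc7a1, Slc7a5 and Slc1a4 (vertical axes from 0, not scaled for depth), stacked for each of the 6 samples; colours are transcripts, and names with ONT are new models. ONT.13687.1 has 0 counts in the 3 Rb2 samples, ONT.4699.1 and ONT.4699.2 never share a sample, and ONT.6542.1 has 66 counts in Ctrl replicate 1, 8 in Rb2 replicate 2 and 0 elsewhere.

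The regulators of the integrated stress response stood beside the transporters as follows. Of 16 listed, 14 were tested: 5 fell, 0 rose and 9 did not pass, beside 0.805% lower and 1.90% higher of all genes tested. The log2 fold changes of the 14 ran from -1.44 to 0.93, with a median of -0.45 against -0.016 over all genes tested. This list, like those below, was chosen with earlier results of these data known. Its counts and median are therefore descriptions and not an independent test of the list. Those that fell were Atf4 and its partner and target genes Ddit3 (CHOP), Ppp1r15a (GADD34, which directs dephosphorylation of eIF2 alpha), Trib3 (a pseudokinase that binds and restrains ATF4) and Ddit4 (REDD1, an inhibitor of mTORC1), the last named after its values were seen. Trib3 measured 85.4, 88.9 and 86.0 CPM in Ctrl replicates 1 to 3 and 61.6, 53.9 and 63.7 CPM in Rb2 replicates 1 to 3, with no overlap (log2 fold change -0.54, SE 0.11; edgeR adjusted p = 0.0414). Ddit4 measured 155, 121 and 103 CPM in Ctrl and 75.1, 58.8 and 79.8 CPM in Rb2, also with no overlap (log2 fold change -0.83, SE 0.17; edgeR adjusted p = 0.043). Of all genes tested, 12.2% lay lower in Rb2 with no overlap. The log2 fold changes of Ddit3, Ppp1r15a and Atf4 were -0.75, -0.90 and -0.46. Slc7a1 thus moved in the direction of these 5 genes and Slc38a2 in the opposite one. The count of 5 was 6 without Ctrl replicate 1 or Ctrl replicate 3 and 0 without Ctrl replicate 2 or any of the Rb2 replicates.

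The lists of genes that make, move or sense amino acids are read against all genes tested, of which 2.70% were called and 20% (2308 of 11551) had an unadjusted p under 0.05. Of 16 tested synthesis enzymes 0 were called by edgeR, DESeq2 or limma-voom, 1 had an unadjusted p under 0.05, and the list median was -0.13; Phgdh, the first enzyme of serine synthesis and the most abundant member, went from 382 ± 30.5 to 346 ± 20.5 CPM (SD, n = 3 each), a log2 difference of -0.15 (edgeR adjusted p = 0.418). Of 22 other plasma membrane carriers 10 were tested and 0 called by the same 3 tools, with a median of 0.12. At an unadjusted p under 0.05 in edgeR, 2 of them lay higher in Rb2 and 0 lower. The most abundant of them, Slc38a4, a relative of Slc38a2, went from 10.3 ± 1.06 to 9.41 ± 1.76 CPM (SD, n = 3 each), a log2 difference of -0.13 (edgeR adjusted p = 0.77). None of the 22 tested genes of amino acid sensing by mTORC1 and GCN2 was called by these tools; 5 had an unadjusted p under 0.05, the median was 0.18, and the most abundant, the Ragulator subunit gene Lamtor2, had a log2 fold change of -0.27 (edgeR adjusted p = 0.154).

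Of the 5 tested carriers of the lysosomal membrane, 1 fell, 0 rose and 4 did not pass, with a median of -0.10. Beside this, 0.805% of all genes tested were called lower and 1.90% higher. The gene that fell, Slc66a1 (listed under the older symbol Pqlc2), encodes an exporter of cationic amino acids from the lysosome. It measured 25.8, 24.0 and 21.8 CPM in Ctrl replicates 1 to 3 and 13.9, 14.7 and 15.3 CPM in Rb2 replicates 1 to 3. The groups did not overlap, a separation in that direction that 12.2% of all genes tested had. The mean went from 23.9 ± 2.01 to 14.6 ± 0.70 CPM (SD, n = 3 each), a log2 fold change of -0.71 (SE 0.15; edgeR adjusted p = 0.0456). As for Slc7a1, the call was kept in 8 of 19 alternatives and lost in 11, with a log2 fold change of -0.86 to -0.56 and adjusted p-values from 0.0209 to 0.211; it ended without Ctrl replicate 2 (0.167) or Rb2 replicates 1, 2 or 3 (0.155, 0.211 and 0.173).

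**Figure D5:**
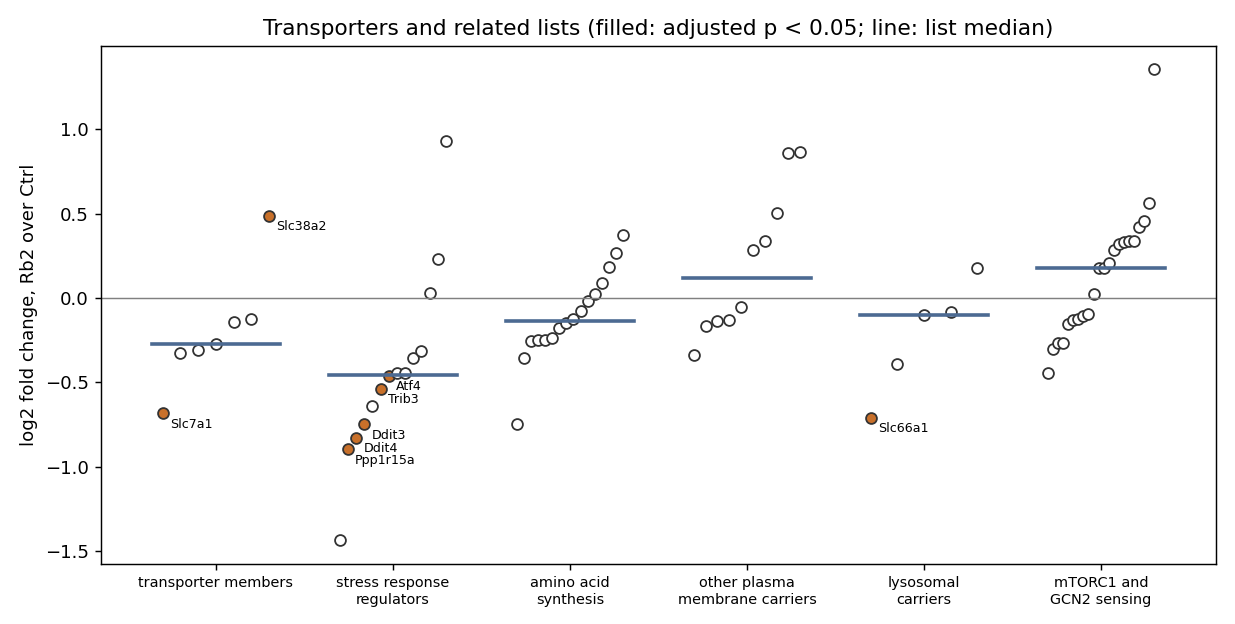
Log2 fold change, Rb2 over Ctrl (vertical axis), of each tested gene of the 7 transporters and of 5 related lists; filled points have an adjusted p under 0.05, and the line is the list median. Among the transporters 1 gene is filled on each side of 0, and the 5 filled stress response regulators all lie below it.

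The genes whose levels most resembled each transporter over the 6 samples were ranked by Pearson's r of log2(CPM + 1) among genes of at least 20 CPM, as a description, since all genes share the same libraries and depths and the group difference. Each neighbour comes from the top of 3613 or 3614 candidates over only 6 samples, so a high r does not show a link. Slc38a2 was most like Hspd1, which encodes the mitochondrial chaperonin HSP60 (r = 0.998), and Metap2, a methionine aminopeptidase gene (r = 0.993); both rose in Rb2, with log2 fold changes of 0.52 and 0.94. Slc7a1 was most like Rtn2, a reticulon gene that fell (r = 0.993, log2 fold change -0.47), and the translation initiation factor gene Eif3d (r = 0.982). Slc7a1 and Slc38a2 themselves ran opposite to each other (r = -0.93). Slc3a2 was nearest to Trappc3 (r = 0.996) and Tagln2 (r = 0.990), and Slc1a5 to Tma7 (r = 0.996) and Atp5mf (r = 0.994). Slc7a5 was nearest to Kifc3 (r = 0.992), which stood at 82.6 CPM in Ctrl replicate 1 and at 46.3 to 54.5 CPM in the other samples. Slc1a4 was nearest to the valyl-tRNA synthetase gene Vars (r = 0.968) and Hmg20b (r = 0.948). Slc6a9 was nearest to Nelfb (r = 0.979) and Slfn2 (r = 0.977). Of the neighbours named here, Hspd1, Metap2 and Rtn2 were called and the others were not.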

How the data were processed

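RNA (1 µg per sample) was made into mRNA libraries with a kit for Illumina sequencing, per the labels' protocols. The authors deposited whole-number counts for genes and for transcripts, with feature lengths, and the deposited CPM equal the count over the column total (largest difference 4.9e-11). The submitters' processing notes name HISAT2, DESeq2 and mm10, a mouse build, without saying what each was used for, while known genes carry rat identifiers; build, counter, strand setting and annotation release are not given in the sources that were used, so overlapping and antisense genes cannot be told apart. Whether reads were long or short is also not given. Each table has 18 further sample columns that were not used.

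The test was edgeR 4.0.16 under R 4.3.3 (filterByExpr, TMM factors, robust quasi-likelihood fit, group as the only term, all 6 samples), and p-values were adjusted by Benjamini-Hochberg over all genes or transcripts tested, with a threshold of 0.05. Standard errors come from the log2 fold change and its F statistic. CPM given here are TMM-scaled and relative to the counts in tested genes or transcripts. The limits for a gene or transcript at 0 and the group level of ONT.13687.1 set against its limit are instead relative to column totals, without TMM factors. Alternatives were RLE, upper-quartile and library size scaling, other filters, DESeq2 1.42.0, limma 3.58.1 (voom, or log2 of the deposited CPM plus 1 or 0.1), a threshold of 0.01, a replicate block, a length offset per library (loess, span 0.5), known genes only, and each sample left out. The scripts were tested on simulated data. There edgeR recovered 46% of 2-fold and 93% of 4-fold gene changes. For transcripts it recovered 8% and 53%, and for transcript usage 0% and 12%. Totals of 5193077 to 8793390 counts per sample set the precision. Labels gave the groups. Same-numbered samples did not deviate together (correlations -0.073, -0.078 and -0.019), so no pairing was assumed.

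The members and lists were chosen with earlier results of these data known. Named are all members, up to 4 called genes of each list by smallest p or otherwise its most abundant gene, and the 2 genes most like each member, except 1 that is not reported here. Promoters come from RefSeq, GRCr8.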

Additional observations from a re-analysis of the deposited data

How the results depend on the processing

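Over 19 alternatives Slc7a1 stayed below 0 and Slc38a2 above 0, as did Slc3a2 (-0.38 to -0.15) and Slc6a9 (-0.46 to -0.15) below it, but the 2 calls rest on adjusted p-values close to 0.05. The 1 transporter called lower and the 1 called higher both became 0 with limma-voom, at a threshold of 0.01 and with the replicate block. The lower call also became 0 with library size only and in limma on deposited CPM (log2, plus 1 or plus 0.1), and the higher call with upper-quartile factors, the length offset and known genes only. Leaving out 1 sample gave 0 to 2 lower and 0 to 1 higher. With the replicate number as a block, a number the samples merely share, the adjusted p was 0.0943 for Slc7a1 and 0.0856 for Slc38a2, and over all genes 21 were lower and 12 higher in place of 93 and 219. The all-gene calls were 150 lower and 386 higher with no filter, 55 and 122 with limma-voom, 13 and 4 at a threshold of 0.01 and 30 and 83 with known genes only; 135 were higher with upper-quartile factors and 135 with the length offset, 469 and 385 on log2 CPM plus 1 and plus 0.1, and 463 with library size only. Without 1 sample they ran from 3 to 291 lower and from 0 to 605 higher. The 5 stress response regulators called lower became 3 with limma-voom, 3 and 1 on log2 CPM plus 1 and plus 0.1, 0 at a threshold of 0.01, 0 with the replicate block, and 0 to 6 without 1 sample. The all-gene median was 0.096 with library size only, against -0.016. The cause of these changes was not tested.

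The sign turned for Slc1a5 on log2 CPM plus 1 and plus 0.1 (0.02 in both), and with library size only for Slc1a5-201 (0.01) and ONT.4699.1 of Slc7a1 (0.14). With each sample left out in turn, the log2 fold change ran from -0.49 to 0.15 for Slc7a5, -0.29 to 0.10 for Slc1a4, -0.29 to 0.08 for Slc1a5, -0.27 to 0.04 for Slc1a5-201, -1.20 to 0.58 for ONT.179.1 of Slc1a5 and -0.38 to 0.24 for ONT.2077.5 of Slc3a2, above 0 without Ctrl replicate 1 only. For ONT.4699.1 it ran from -0.68 to 1.20, above 0 without Ctrl replicate 2 (1.20) or Rb2 replicate 1 (0.57). DESeq2 called 348 transcripts in all, 1 of them of a transporter, where edgeR called 0; leaving out 1 sample gave 0 to 41, and no transporter transcript or usage was called by edgeR in any fit. Slc6a9 had the fewest counts, 18 to 42 per sample.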

Other observations

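The alternating models of Slc7a1 are not the only such pair. In 95 genes, 2 transcript models with at least 20 counts each were counted so that every sample held exactly 1 of them, and in 61 of these genes each model occurred in some samples of both groups and was missing from others of both, as in Slc7a1. Transcripts counted in every Rb2 sample and in no Ctrl sample numbered 102, or 0.229% of all, beside the 177 with the opposite pattern that include ONT.13687.1 of Slc6a9.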
